A study of Mus musculus with 6 samples.

Results

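The genes described here encode the Mediator complex, the subunits of RNA polymerase II (Pol II) and the kinases and elongation factors that act on Pol II after initiation. They were chosen by name: protein-coding rows called Med followed by a number, Polr2 followed by a letter from a to m, and 23 further genes for kinases, cyclins, Hexim1, NELF, DSIF, Supt6 and the super elongation complex. The rule found 66 genes among 55232 annotated features, and 64 of them had enough reads to be tested among 13804 tested features. Mediator bridges transcription factors at enhancers and the Pol II machinery at promoters, and its kinase module can join or leave the core. Soon after initiation Pol II is held by the pausing factors NELF and DSIF. The kinase P-TEFb, kept inactive by Hexim1 on the 7SK RNA, releases it by phosphorylating NELF, DSIF and the C-terminal domain (CTD) of Polr2a, and the super elongation complex carries active P-TEFb.

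The sequenced RNA came from mouse pulmonary microvascular endothelial cells. The labels call them a cell line, and they had shared a culture with kidney cells for 12 h, sitting in the lower of its chambers. The partner cells were TCMK-1, a mouse kidney tubular epithelial line. They were either untreated (control, 3 libraries) or had been depleted of ATP and then allowed to regain it (called repletion here, 3 libraries), which is a culture model of renal ischemia and reperfusion. The endothelial cells themselves were untreated in both groups, and no group without TCMK-1 cells is compared here. The question of the comparison is how the endothelial cells' transcripts differ after sharing medium with injured tubular cells. The labels do not state that the libraries within a group are separate cultures. Every p-value therefore measures only the spread between these libraries, which may be technical. Libraries are named by the number in their labels.

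The libraries held 15582349 to 17817618 counts. Endothelial markers were high in both groups, with a summed level of 2139 to 2372 counts per 1000000 of the unscaled library (CPM) in control and 2145 to 2513 CPM in repletion, although Cldn5 was at 0 in 5 of 6 libraries. Pecam1, Cdh5 and Tie1 made up most of that sum. Single markers changed in both directions, with log2 changes of 1.06 for Erg (edgeR, adjusted p = 5.77e-05), 0.58 for Tek (0.00348), -0.46 for Esam (0.0034) and -0.45 for Vwf (0.0365). The 12 tubular markers summed to 9.37 to 12.6 CPM in control and 19.1 to 27.6 CPM in repletion. Most of that difference was Cubn, at a mean of 3.44 and 14.1 CPM, while Epcam, Lhx1 and Krt18 had no count in any library. The 6 leukocyte markers summed to 378 to 416 CPM in control and 223 to 310 CPM in repletion, nearly all of it Cd68, with Cd3e and Itgam at 0. The 6 fibroblast markers summed to 20.3 to 22.5 CPM and 16.8 to 24.8 CPM, with Lum at 0, and the 6 lung epithelial markers to at most 1.80 CPM, with Sftpc, Scgb1a1 and Nkx2-1 at 0. The part of these shifts in the results below was not tested.

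The 3 largest changes were a rise of Cdk12, a kinase of the Pol II CTD, a fall of Hexim1, the inhibitor of P-TEFb, and a rise of Cdk8, the kinase of Mediator. Polr2a, which encodes the catalytic subunit of Pol II, and the Mediator gene Med20 fell by less. In edgeR's quasi-likelihood test, with p-values adjusted over all tested features and a threshold of 0.05, 7 of the 64 rose and 11 fell. Of all tested features 20.5% rose and 19.2% fell. The 10.9% of these genes that rose was below its background share, and the 17.2% that fell was close to its own. With scaling by library size alone, 9 rose and 8 fell. All tested features moved the same way under that scaling, with more rises and fewer falls than in the main test. The number of these genes that rose was 4 without control library 2, control library 3 or repletion library 3. Without each of those libraries fewer of all tested features rose as well. In either direction 28.1% of the genes passed, against 39.7% of all tested features. In 24 of the 64 the groups did not overlap, against 50.3% of all tested features. The median log2 fold change was 0.00, as it was over all tested features, and the median size of change was 0.25 against 0.38 over all tested features. Changes of at least 2-fold were seen for Cdk12, Cdk8 and Hexim1, 3 of the 64, where 10.3% of all tested features passed with such a change. Bulk counts cannot tell fewer cells of a type from less RNA per cell, and this holds for every result below.

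**Figure D1:**
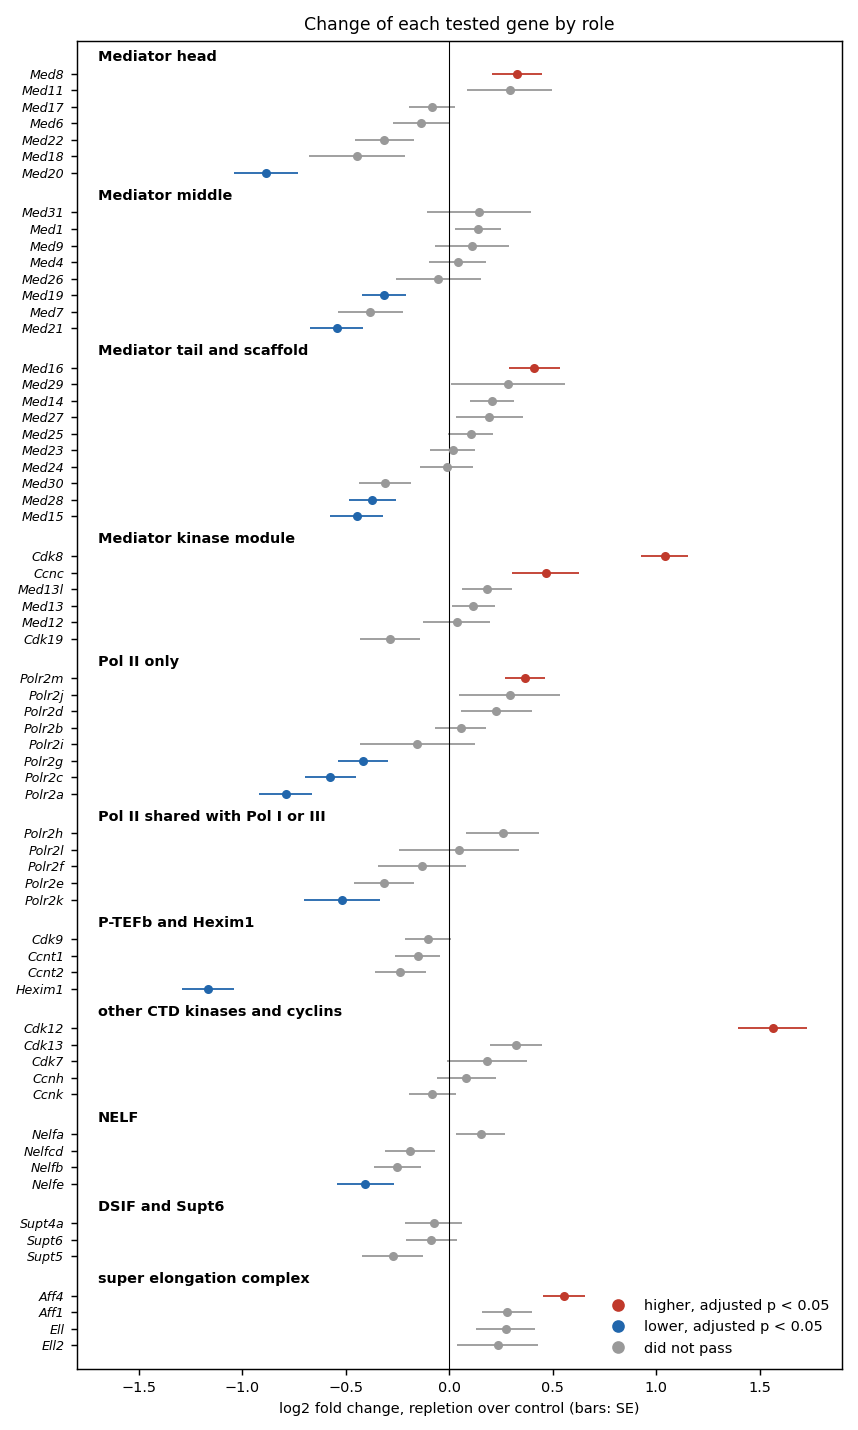
Log2 fold change of the 64 tested genes, repletion over control, grouped by role, with the SE as bars. Cdk12 at 1.56 and Hexim1 at -1.17 lie at the ends, and most genes lie between -0.5 and 0.5.

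The share of each library that these 66 genes took overlapped between the groups. It was 0.411%, 0.452% and 0.425% in control and 0.439%, 0.406% and 0.419% in repletion (two-sided exact permutation test, p = 0.6). Without Polr2a, the other 65 genes took 0.3503%, 0.3697% and 0.3559% in control. In repletion they took 0.3895%, 0.3711% and 0.3761%, without overlap (exact permutation p = 0.1), though the nearest libraries were at 0.3697% and 0.3711%. Polr2a, the gene left out, is itself one that fell. These shares are of unscaled libraries. With scaling by library size alone, the median log2 change of all tested features was also above 0, at 0.06. The 13 Pol II subunit genes together went from 0.126% ± 0.0104 to 0.103% ± 0.00980 (SD, n = 3), without overlap (exact permutation p = 0.1). Polr2a had the most counts of the 13 in every library, 9786, 13148 and 12230 in control and 8169, 5508 and 7118 in repletion. Singly, 4 of the 13 fell (30.8%), 1 rose (7.69%) and 8 did not pass, so the sum does not describe the subunits as a set. Of all tested features 19.2% fell and 20.5% rose. The 33 Mediator and kinase module genes took 0.176% ± 0.00695 and 0.185% ± 0.00199 (SD, n = 3; exact permutation p = 0.2). With 3 libraries against 3, 0.1 is the smallest p that this test can give.

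The 4 promoter sequences below are shown because their genes had 4 of the 5 largest changes. Cdk12 is left out because its start in RefSeq lies 246 bases inside the deposited gene. They are the bases upstream of the deposited gene start, from RefSeq's promoter table for GRCm38.p6, read 5′ to 3′ on the gene's strand. Capitals mark matches, on either strand, to the TATA box (TATAAA or TATATAA), the sequence CCAAT, the GC box (GGGCGG), the NRF1 motif (GCATGCGC), the ETS motif (CCGGAAGT) or the YY1 motif (AAGATGGC). The genes shown and the TATATAA form were chosen after their values and sequences were seen. Cdk8 rose, and the other 3 genes fell. They lie at chr5:146231000-146231229 on the plus strand (Cdk8), chr11:103116075-103116230 on the plus strand (Hexim1), chr17:47611335-47611581 on the plus strand (Med20) and chr11:69758638-69758883 on the minus strand (Polr2a).
Cdk8: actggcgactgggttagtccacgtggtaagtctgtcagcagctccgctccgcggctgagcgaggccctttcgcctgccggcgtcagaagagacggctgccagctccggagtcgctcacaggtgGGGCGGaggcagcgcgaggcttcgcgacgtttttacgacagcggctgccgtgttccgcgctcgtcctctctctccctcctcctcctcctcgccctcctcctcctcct
Hexim1: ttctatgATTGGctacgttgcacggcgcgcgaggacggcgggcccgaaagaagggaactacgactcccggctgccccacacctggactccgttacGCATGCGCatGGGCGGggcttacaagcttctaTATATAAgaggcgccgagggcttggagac
Med20: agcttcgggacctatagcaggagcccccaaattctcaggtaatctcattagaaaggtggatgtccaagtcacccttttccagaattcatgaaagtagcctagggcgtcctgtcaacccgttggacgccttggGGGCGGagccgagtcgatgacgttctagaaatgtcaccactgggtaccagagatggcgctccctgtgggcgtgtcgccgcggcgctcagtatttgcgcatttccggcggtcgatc
Polr2a: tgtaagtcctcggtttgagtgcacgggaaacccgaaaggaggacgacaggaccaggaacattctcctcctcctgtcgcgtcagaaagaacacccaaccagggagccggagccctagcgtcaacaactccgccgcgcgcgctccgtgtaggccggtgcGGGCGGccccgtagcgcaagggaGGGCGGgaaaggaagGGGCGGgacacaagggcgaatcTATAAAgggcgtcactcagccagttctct
The Polr2a sequence holds TATAAA 29 to 24 bases before the gene start and 3 GC boxes upstream of it. The Hexim1 sequence holds TATATAA 29 to 23 bases before the start, a GC box, an NRF1 motif and CCAAT on the reverse strand. The Cdk8 and Med20 sequences hold 1 GC box each and neither TATA form. A match is a description of the letters, not a measured binding site.

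Over the 250 bases before the RefSeq start, 55 of the 66 genes had a promoter in the table. TATAAA stood in 6 of the 55 (10.9%), against 6.1% of 9200 promoters of tested protein-coding genes and 12.4% of all 32851 promoters. TATATAA stood in 1 of the 55, against 1.1% and 3.0%. GC boxes were in 40 of the 55, against 60.3% and 32.7%, and CCAAT was in 19, against 37.6% and 33.8%. NRF1 motifs were found in 6, against 4.8% and 2.3%. ETS motifs were found in 4, against 6.5% and 2.9%, and YY1 motifs in 2, against 2.0% and 1.6%. The median GC content of these windows was 61.6%, against 60.0% for tested protein-coding genes.

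The polymerase itself changed most at its catalytic subunit. Polr2a encodes the largest subunit, which carries the CTD and the active site, and lies on chromosome 11 (69733997 to 69758637, minus strand, GRCm38). It had 9786, 13148 and 12230 counts in control and 8169, 5508 and 7118 in repletion. Scaled for library composition by edgeR's TMM method, this was 720 ± 107 CPM and 416 ± 65.3 CPM (SD, n = 3), with every repletion library below every control library. Polr2a fell by 0.79 ± 0.13 on the log2 scale (SE; edgeR, adjusted p = 0.000137), 1.73-fold. Polr2b, the second largest subunit, had 1048, 1230 and 1228 counts in control and 1442, 994 and 1289 in repletion. Its groups overlapped and its log2 change was 0.06 ± 0.12 (adjusted p = 0.754).

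Among the 8 tested genes of subunits found only in Pol II, 3 fell (37.5%) and 1 rose (12.5%). Of all tested features 19.2% fell and 20.5% rose. Polr2c, which pairs with Polr2j in the assembly platform of the enzyme, had 843, 821 and 944 counts in control and 630, 510 and 646 in repletion, without overlap. It fell by 0.57 ± 0.12 (edgeR, adjusted p = 0.00128), whereas Polr2j had 105, 121 and 148 counts in control and 226, 115 and 127 in repletion, with overlapping groups and a log2 change of 0.29 ± 0.24. Part of Polr2c, 18.1% of its exonic bases, lies under the antisense gene Dok4, which had 92, 161 and 171 counts in control and 116, 170 and 210 in repletion. Polr2g, a subunit of the stalk, fell by 0.42 ± 0.12 (adjusted p = 0.0106), and Polr2d, its partner in the stalk, changed by 0.23 ± 0.17 without passing. After removal of the dependence on gene length and GC content within each library (below, the length and GC trend), the Polr2g change was -0.20 with an adjusted p of 0.132. Polr2m, which encodes the accessory subunit Gdown1, rose by 0.37 ± 0.10 (adjusted p = 0.00707), from 218 ± 9.52 to 281 ± 17.1 CPM (SD, n = 3). Without repletion library 3 its change was 0.32 (adjusted p = 0.0549). Polr2i had a log2 change of -0.15 ± 0.28 and did not pass.

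Of the 5 subunits that Pol II shares with Pol I or Pol III, 1 passed, Polr2k. Polr2k, a small zinc-binding subunit common to all 3 polymerases, had 318, 310 and 260 counts in control and 174, 224 and 234 in repletion, without overlap. It fell by 0.52 ± 0.18 (edgeR, adjusted p = 0.0318). The Polr2k call was lost under 6 of 17 alternatives. It did not pass without control library 1 (adjusted p = 0.0943), control library 2 (0.0964) or repletion library 1 (0.107), nor with scaling by library size alone (0.0556), and the authors' deposited table gives it an adjusted p of 0.0526. Log2 changes of Polr2e, Polr2f, Polr2h and Polr2l were -0.31, -0.13, 0.26 and 0.05. Polr2e passed without repletion library 1, at -0.41 (adjusted p = 0.0408). A near-identical pseudogene exists for Polr2k (Gm46136, at most 3 counts in a library) and for Polr2h (Gm7511, at most 3 counts).

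For the related enzymes Pol I and Pol III, 3 of 15 tested subunit genes rose and 0 fell in edgeR's test. Of all tested features 20.5% rose, close to the share of the 15 that rose, and 19.2% fell. DESeq2 and limma-voom also called 0 of the 15 lower, while 2 of them were lower at an unadjusted p under 0.05. Without control library 1, repletion library 1 or repletion library 2, 1 passed as lower. Polr1b, the second largest Pol I subunit, had 656, 758 and 948 counts in control and 1481, 1452 and 1423 in repletion. It rose by 0.86 ± 0.12 (edgeR, adjusted p = 3.26e-05), with no overlap between the groups. The other risers, named after their values were seen, were Polr3g at 1.06 ± 0.17 and Polr1e at 0.49 ± 0.19, subunits of Pol III and Pol I. Polr1e did not pass when any of 5 of the 6 libraries was left out (adjusted p of 0.0673 to 0.18), the exception being repletion library 2. It also did not pass with upper quartile scaling (0.0517), with no filter on low counts (0.0854) or with the replicate number as a block (0.0739).

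**Figure D2:**
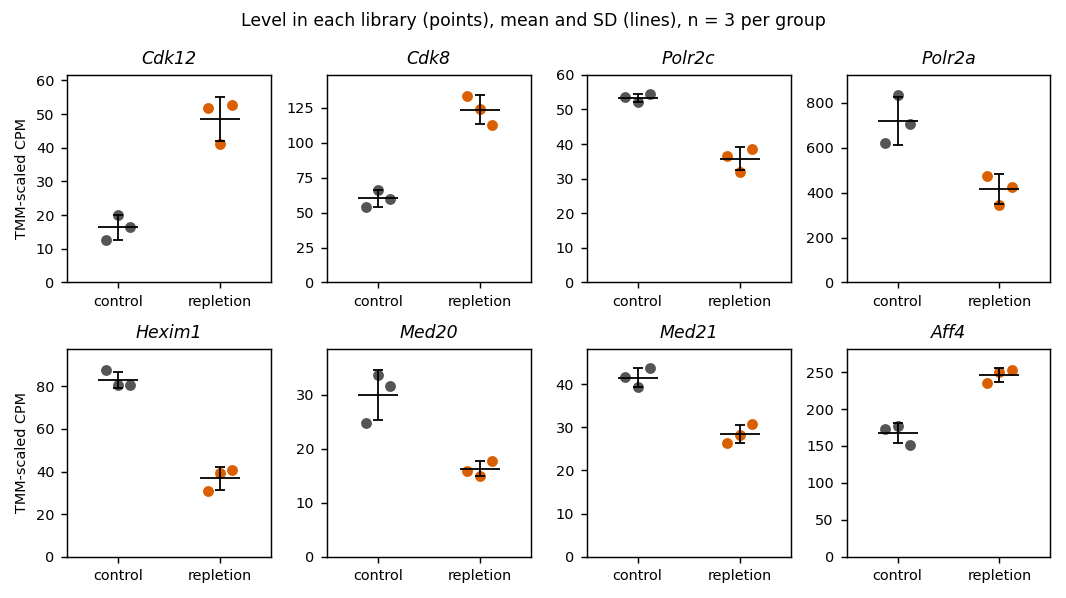
TMM-scaled CPM of 8 genes in each of the 6 libraries (points), with the group mean and SD (lines). In each panel the 3 control and the 3 repletion libraries are separate, with Cdk12, Cdk8 and Aff4 higher and Polr2c, Polr2a, Hexim1, Med20 and Med21 lower in repletion.

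Of the 5 tested genes for other CTD kinases and cyclins, Cdk12 rose. Cdk12 phosphorylates the CTD during elongation with its cyclin Ccnk and lies on chromosome 11 (98203059 to 98278504, plus strand, up to 14 exons in a transcript). It had 200, 318 and 285 counts in control and 888, 652 and 884 in repletion. The lowest repletion library was more than 2 times the highest control library, at 41.0 against 20.2 CPM. Cdk12 rose by 1.56 ± 0.17 on the log2 scale (edgeR, adjusted p = 2.46e-06), 2.96-fold, from 16.4 ± 3.72 to 48.5 ± 6.55 CPM (SD, n = 3), the largest change in this set of genes. Its paralog Cdk13, which also pairs with Ccnk, had 748, 757 and 749 counts in control and 1042, 779 and 1060 in repletion. The Cdk13 groups did not overlap, but its change of 0.32 ± 0.13 had an adjusted p of 0.0506, just outside the threshold. Cdk13 passed under 6 of 17 alternatives, among them without repletion library 2, at 0.42 (adjusted p = 0.0122). Ccnk had log2 change -0.08 ± 0.11. Cdk7 and Ccnh, the kinase and cyclin of TFIIH that act at initiation, had changes of 0.18 ± 0.19 and 0.08 ± 0.14, and none of these 3 passed.

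Med1 and Cdk12 are neighbours on chromosome 11, 9.8 kb apart and pointing away from each other. Med1, the middle subunit that binds nuclear receptors, had 1054, 1245 and 1260 counts in control and 1367, 1206 and 1419 in repletion. Its log2 change was 0.14 ± 0.11, with overlapping groups, beside 1.56 for Cdk12.

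Of the 4 tested genes for P-TEFb and its inhibitor, Hexim1 fell (25.0%, against 19.2% of all tested features). Hexim1, a gene of 1 exon on chromosome 11 (103116231 to 103119725, plus strand), had 1378, 1273 and 1403 counts in control and 529, 625 and 682 in repletion. The highest repletion library, at 40.8 CPM, was far below the lowest control library, at 80.7 CPM. Hexim1 fell by 1.17 ± 0.13 (edgeR, adjusted p = 2.82e-06), 2.25-fold, from 83.0 ± 3.94 to 37.0 ± 5.37 CPM (SD, n = 3). Cdk9, the kinase of P-TEFb, had 1352, 1181 and 1377 counts in control and 1410, 1097 and 1208 in repletion. Its change was -0.10 ± 0.11 (adjusted p = 0.49). The cyclins Ccnt1 and Ccnt2 had changes of -0.15 ± 0.11 and -0.24 ± 0.13, and the groups overlapped for all 3. Once the length and GC trend was removed, both cyclins passed as lower, Ccnt1 at -0.32 (adjusted p = 0.0148) and Ccnt2 at -0.50 (adjusted p = 0.00576). Ccnt2 also passed without repletion library 1, at -0.37 (adjusted p = 0.0208). Thus 1 of the 4 genes fell in the main test and 3 after the trend was removed.

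Among 13 tested partners of 7SK and pause release, 2 rose and 2 fell (15.4% each), against 20.5% and 19.2% of all tested features. The rises were 1 without control library 1, control library 3 or repletion library 3. The falls were 1 without control library 2 or repletion library 3 and 0 without control library 3. Mllt3, which encodes the chromatin-reading protein AF9 of the super elongation complex, had 340, 338 and 366 counts in control and 539, 505 and 670 in repletion. It rose by 0.69 ± 0.14 (edgeR, adjusted p = 0.00102). Mepce, which caps and holds the 7SK RNA, fell by 0.37 ± 0.12 (adjusted p = 0.0189), but not without control library 3 (adjusted p = 0.137) or repletion library 3 (adjusted p = 0.0568). With the replicate number as a block and the length and GC trend removed together, its adjusted p was 0.0604. Hexim2, the paralog of Hexim1, was low, with 27, 20 and 43 counts in control and 23, 19 and 30 in repletion.

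In the super elongation complex, the scaffold gene Aff4 rose among 4 tested genes (25.0%, against 20.5% of all tested features). Aff4 had 2731, 2795 and 2628 counts in control and 4037, 3974 and 4232 in repletion, with no overlap. It rose by 0.56 ± 0.10 (edgeR, adjusted p = 0.000399). With the replicate number as a block and the length and GC trend removed together, its change was 0.27 with an adjusted p of 0.0615. Aff1, the paralogous scaffold, had 703, 870 and 836 counts in control and 1091, 942 and 946 in repletion, without overlap, and its change of 0.28 ± 0.12 did not pass (adjusted p = 0.0737). The elongation factors Ell and Ell2 had changes of 0.27 ± 0.14 and 0.23 ± 0.20. Ell had 466, 476 and 529 counts in control and 741, 479 and 596 in repletion, and Ell2 had 184, 186 and 193 and then 189, 279 and 203. Both pairs of groups overlapped. All 4 point estimates were above 0, while 1 passed. Without repletion library 2, Ell also passed, at 0.38 (adjusted p = 0.0374).

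Of the 4 NELF genes, 1 fell (25.0%, against 19.2% of all tested features). Nelfe, the NELF subunit that binds RNA, had 948, 924 and 1259 counts in control and 996, 646 and 765 in repletion. On the TMM scale the highest repletion library, at 58.0 CPM, lay just below the lowest control library, at 58.6 CPM. Nelfe fell by 0.41 ± 0.14 (edgeR, adjusted p = 0.0279), and it did not pass without control library 3 (0.144), repletion library 2 (0.0977) or repletion library 3 (0.103). With the length and GC trend removed its change was -0.26 (adjusted p = 0.0974), with the replicate block added to that -0.27 (adjusted p = 0.126), and with scaling by library size alone -0.34 (adjusted p = 0.0643). Nelfa, Nelfb and Nelfcd had changes of 0.15, -0.25 and -0.19, and Nelfb passed without repletion library 2, at -0.32 (adjusted p = 0.0447). In DSIF, Supt5 had 1186, 1737 and 2062 counts in control and 1657, 1199 and 1334 in repletion, with overlapping groups and a change of -0.27 ± 0.15 (adjusted p = 0.152). Without control library 1, the lowest of its group, the Supt5 change was -0.47 (adjusted p = 0.0109), and without repletion library 1 it was -0.39 (adjusted p = 0.0383). Supt4a, the small DSIF subunit, and the histone chaperone gene Supt6 had changes of -0.07 and -0.09.

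Of 15 tested genes for the PAF complex, FACT, TFIIS and related elongation factors, 1 rose and 1 fell (6.67% each). Of all tested features 20.5% rose and 19.2% fell. Without repletion library 1 the counts among the 15 were 4 and 3, 2 rose without control library 2, and 2 fell without repletion library 2. Iws1, a partner of Supt6, had 732, 799 and 823 counts in control and 1466, 1279 and 1272 in repletion. It rose by 0.74 ± 0.11 (edgeR, adjusted p = 6.48e-05). Ssrp1, a subunit of the histone chaperone FACT, had 7018, 7289 and 9318 counts in control and 5861, 5282 and 6263 in repletion, and it fell by 0.46 ± 0.10 (adjusted p = 0.00206). In the list of CTD phosphatases and CTD-binding factors, 4 of 12 rose (33.3%) and 3 fell (25.0%), against 20.5% and 19.2% of all features. Of the 4 small CTD phosphatase genes in it, 3 rose: Ctdsp2 by 0.71 ± 0.12 (edgeR, adjusted p = 0.000233) and, named after their values were seen, Ctdsp1 by 0.80 ± 0.15 and Ctdspl by 1.31 ± 0.27. The other one, Ctdspl2, had 1793, 1714 and 1779 counts in control and 1704, 1958 and 1767 in repletion, with overlapping groups and a log2 change of 0.01 that did not pass (adjusted p = 0.935). Rprd2, which binds the CTD, fell by 0.45 ± 0.13 (adjusted p = 0.0112). The 3 falls in this list dropped to 1 without control library 2, control library 3, repletion library 2 or repletion library 3.

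In the Mediator head, Med20 fell and Med8 rose among 7 tested genes (14.3% each, against 19.2% and 20.5% of all tested features). Med20, a head subunit that pairs with Med18, lies on chromosome 17 (47611582 to 47624418, plus strand). It had 390, 531 and 548 counts in control and 274, 239 and 297 in repletion, with no overlap. Med20 fell by 0.88 ± 0.15 (edgeR, adjusted p = 0.000271), 1.85-fold, from 30.0 ± 4.64 to 16.2 ± 1.39 CPM (SD, n = 3). Other annotated features overlap 28.4% of its exonic bases, and they had at most 5 counts in any library (Gm20517) or none (Kpna2-ps). Med18 had a point estimate of the same sign, -0.45 ± 0.23, that did not pass (adjusted p = 0.139). Med8, which holds the Med18 and Med20 pair to the head, rose by 0.33 ± 0.12 (adjusted p = 0.0411), although the groups overlapped at 77.8 to 90.9 CPM and 89.3 to 122 CPM. The Med8 call was lost without control library 2 (adjusted p = 0.172), control library 3 (0.141), repletion library 2 (0.207) or repletion library 3 (0.0902). It was also lost with no filter on low counts (0.0683) and with the replicate number as a block (0.0822). Med6, Med11, Med17 and Med22 had changes of -0.14, 0.29, -0.08 and -0.31.

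In the middle module 2 of 8 tested genes fell (25.0%) and 0 rose, against 19.2% and 20.5% of all tested features. Med21, which forms a long hinge with Med7, had 656, 619 and 758 counts in control and 454, 449 and 514 in repletion. Every repletion library was below every control library, and Med21 fell by 0.54 ± 0.13 (edgeR, adjusted p = 0.00264). Antisense features overlap 15.5% of its exonic bases, of which Tm7sf3 had 306, 315 and 351 counts in control and 252, 302 and 257 in repletion. Med7 itself had 436, 371 and 419 counts in control and 285, 284 and 391 in repletion. Its groups did not overlap on the TMM scale, and its change of -0.38 ± 0.16 had an adjusted p of 0.0654. Without repletion library 3 the Med7 change was -0.55 and passed (adjusted p = 0.025). Med19, another middle subunit, fell by 0.31 ± 0.10 (adjusted p = 0.0237), the smallest change that passed. It lost its call under 8 of 17 alternatives, including the removal of control library 1 (0.0545), control library 2 (0.0617), repletion library 1 (0.0611) or repletion library 3 (0.0603), scaling by library size alone (0.0626) and removal of the length and GC trend (0.0577). Its antisense neighbours Tmx2 and Zdhhc5 are well covered, at 1086 to 1837 and 1641 to 2803 counts per library. The changes of Med1, Med4, Med9, Med26 and Med31 lay between -0.05 and 0.14. Med10 had no count in any library, and 92.8% of its exonic bases lie in the antisense transcript Gm26819, which had 23, 16 and 20 counts in control and 37, 13 and 19 in repletion. The sources used here do not give the strand setting of the counting. The absence of Med10 counts is therefore not a measure of its expression.

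The tail and scaffold had 1 rise and 2 falls among 10 tested genes, where 20.5% of all tested features rose and 19.2% fell. The share of the 10 that fell was thus close to that of all tested features, and the share that rose was below it. Med15, a tail subunit that binds transcription activators, had 1571, 2077 and 2061 counts in control and 1688, 1154 and 1432 in repletion. On the TMM scale its groups met closely, at 99.8 to 132 and 72.5 to 98.3 CPM, and it fell by 0.45 ± 0.13 (edgeR, adjusted p = 0.0105). Without control library 2 its change was -0.37 (adjusted p = 0.0572). Med28 fell by 0.37 ± 0.11 (adjusted p = 0.0149) and did not pass without control library 1 (0.0559), control library 3 (0.0595) or repletion library 3 (0.0546). Med16, a tail subunit, rose by 0.41 ± 0.12 (adjusted p = 0.0138), from 42.1 ± 5.24 to 55.9 ± 2.07 CPM (SD, n = 3). It did not pass without control library 2 (0.05), control library 3 (0.105) or repletion library 3 (0.0554). With the replicate number as a block and the length and GC trend removed together, its adjusted p was 0.068. Med30 was just outside the threshold at -0.31 ± 0.13 (adjusted p = 0.0599) and passed without control library 2, at -0.40 (adjusted p = 0.0424). Med14, the scaffold that joins head, middle and tail, had a change of 0.21 ± 0.11. Those of Med23, Med24, Med25, Med27 and Med29 lay between -0.01 and 0.28.

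In the kinase module Cdk8 and its cyclin Ccnc rose among 6 tested genes (33.3%, against 20.5% of all tested features). Cdk8, on chromosome 5 (146231230 to 146302874, plus strand), had 856, 1041 and 1044 counts in control and 2292, 1981 and 1892 in repletion. Its lowest repletion library, at 113 CPM, was well above its highest control library, at 66.0 CPM. Cdk8 rose by 1.04 ± 0.11 (edgeR, adjusted p = 3.1e-06), 2.06-fold, from 60.2 ± 5.79 to 124 ± 10.2 CPM (SD, n = 3). A processed pseudogene nearly identical to it, Gm7107, had 3 to 25 counts per library. Ccnc, the cyclin of Cdk8, had 628, 527 and 575 counts in control and 675, 1019 and 728 in repletion. On the TMM scale its groups overlapped, and it rose by 0.47 ± 0.16 (adjusted p = 0.0303). That call was lost without control library 2 (0.117), control library 3 (0.114) or repletion library 2, the highest library (change 0.22, adjusted p = 0.231). It was also lost with the replicate number as a block (0.0534), and with the length and GC trend removed besides (0.0677). Cdk19, the alternative kinase of the module, had 586, 654 and 638 counts in control and 469, 614 and 482 in repletion. Its groups overlapped and its change of -0.29 ± 0.14 did not pass (adjusted p = 0.128). Without repletion library 2 it passed as lower, at -0.46 (adjusted p = 0.0148). Med12, which activates the kinase, had a change of 0.04 ± 0.16, and its control libraries spread widely, at 1008, 1921 and 1685 counts. Med13 and Med13l, which link the module to the core, had changes of 0.12 ± 0.10 and 0.18 ± 0.12. Med12l, the paralog of Med12, was not tested, with 17, 4 and 5 counts in control and 8, 2 and 1 in repletion.

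**Figure D3:**
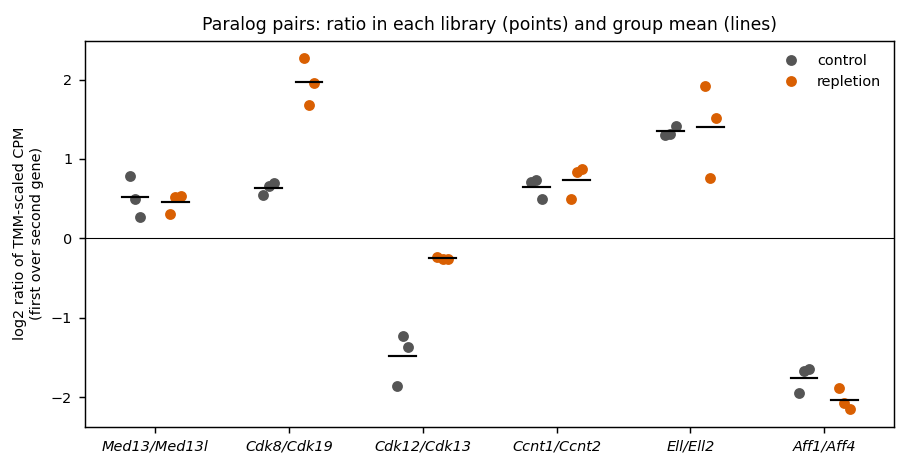
Log2 ratio of TMM-scaled CPM (with 0.5 CPM added) between the genes of 6 paralog pairs, in each library (points) and as the group mean (lines). The control and repletion ratios are apart for Cdk8 over Cdk19 and for Cdk12 over Cdk13 and overlap for the other 4 pairs.

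The ratio between paralogs was apart between the groups in 2 of the 6 pairs that could be compared. The log2 ratio of Cdk8 to Cdk19 was 0.54, 0.66 and 0.70 in control and 2.27, 1.68 and 1.95 in repletion. The mean difference was 1.33, and over the 9 pairs of a repletion with a control library it ranged from 0.97 to 1.73. The log2 ratio of Cdk12 to Cdk13 was -1.86, -1.23 and -1.37 in control and -0.23, -0.25 and -0.26 in repletion. That mean difference was 1.24, with a range of 0.97 to 1.63. In both pairs the groups did not overlap, and the two-sided exact permutation test gave p = 0.1, the smallest possible, and 0.3 after Benjamini-Hochberg adjustment over the 6 pairs. The ratio of Aff1 to Aff4 went from -1.75 ± 0.17 to -2.03 ± 0.14 (SD, n = 3; exact permutation p = 0.2), with overlap. Differences for Med13 over Med13l, Ccnt1 over Ccnt2 and Ell over Ell2 were -0.07, 0.09 and 0.05. They ranged over the library pairs from -0.49 to 0.26, from -0.23 to 0.38 and from -0.65 to 0.62. Med13 had 2325, 2510 and 2318 counts in control and 2716, 2624 and 2573 in repletion, and Med13l had 1342, 1770 and 1921 and then 2203, 1825 and 1776. Ccnt1 had 2084, 1976 and 1973 counts in control and 1906, 1913 and 1713 in repletion, and Ccnt2 had 1274, 1188 and 1399 and then 1348, 1065 and 929.

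General transcription factors, which place Pol II at promoters, held a larger change than any gene above. In that list 3 of 29 tested genes rose (10.3%) and 8 fell (27.6%), against 20.5% and 19.2% of all tested features. The balance depended on the processing: 7 rose and 6 fell with scaling by library size alone, and 5 rose and 7 fell with the length and GC trend removed. Gtf2a1, the large subunit precursor of TFIIA, had 284, 199 and 275 counts in control and 1048, 1276 and 1150 in repletion. It rose by 2.17 ± 0.15 (edgeR, adjusted p = 3.24e-08). Taf7, a TFIID subunit, had 235, 158 and 200 counts in control and 106, 78 and 116 in repletion, and fell by 1.01 ± 0.22 (adjusted p = 0.0016). Both pairs of groups were apart. The 8 falls dropped to 4 or 5 when control library 2 or 3 or repletion library 2 or 3 was left out. Without each of those libraries fewer of all tested features fell as well.

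**Figure D4:**
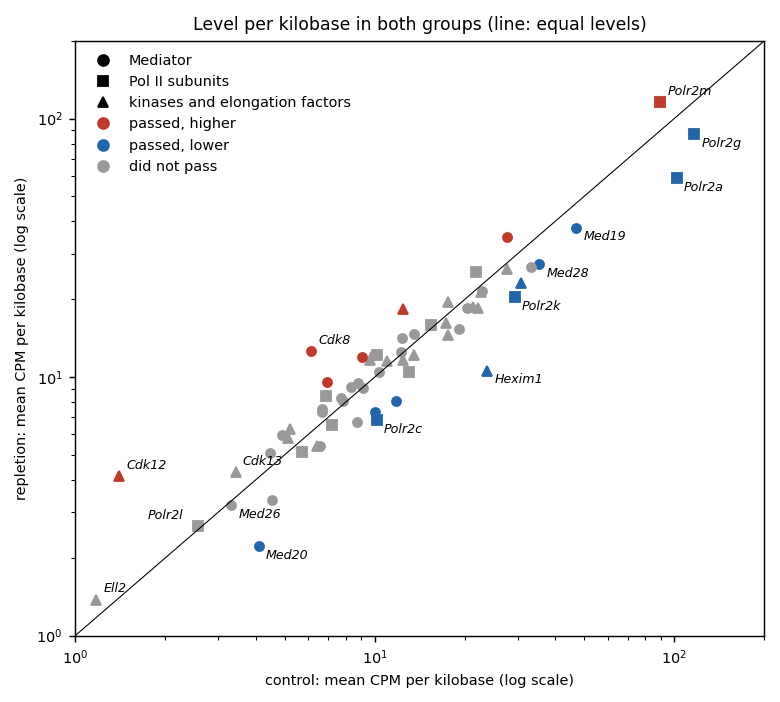
Mean TMM-scaled CPM per kilobase of each tested gene in control (x) and repletion (y), both on log axes, with the line of equal levels. Polr2m, Polr2g and Polr2a are the highest Pol II genes in control, and Cdk12 lies farthest above the line.

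Levels per kilobase of gene model differed widely within each complex in control cells. Among the 13 Pol II subunits they ran from 2.58 CPM per kilobase for Polr2l to 117 for Polr2g, with a median of 13.0. The Polr2g value uses the deposited length of 868 bases, while GENCODE M21 gives that gene 1247 exonic bases, so its rank depends on the gene model. Polr2a stood at 102 and Polr2m at 89.9. The 25 tested genes of the Mediator core ran from 3.32 for Med26 to 47.1 for Med19, with a median of 9.14. Cdk12 stood at 1.40 CPM per kilobase in control, above Ell2 alone (1.17) among the 64 tested genes, and Cdk13 stood at 3.43. In repletion the means were 4.14 for Cdk12 and 4.29 for Cdk13.

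The position and length of the genes were also compared with their changes. Of the 66 genes, 13 lie on chromosome 11, which holds 8.16% of the tested protein-coding genes. Among these 13, all tested, 2 rose and 2 fell, where 20.5% of all tested features rose and 19.2% fell. Longer genes tended to have more positive changes across the transcriptome, with a Spearman correlation between log2 fold change and gene length of 0.246 over 11670 tested protein-coding genes. Over the 64 genes it was 0.154. Genes in 1 library share its depth and composition, so these correlations are descriptions across genes and not across samples. The median change was -0.13 in the 23 genes shorter than 3000 bases and 0.11 in the 20 genes of 6000 bases or more. The same medians over protein-coding genes were -0.17 and 0.16.

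The authors' deposited table gave an adjusted p under 0.05 to 7 of these genes as higher and to 10 as lower. All 17 passed here as well, and Polr2k was the one gene that passed here alone.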

How the data were processed

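RNA was measured by sequencing in 3 control and 3 repletion samples, grouped by the treatment in their labels. The values used are the raw read counts per gene deposited by the authors. Tools named in the submitters' processing notes are DESeq2 1.20.0, HISAT2 2.0.5 and featureCounts 1.5.0-p3, with the build GRCm38.p6. Annotation release and strand setting: not given in the sources used here. The authors' FPKM, per the file headers, were only checked against the counts: they equal count over length over a constant per sample, 0.981 to 1.04 times the column total. The authors' log2 fold changes and p-values, as the file headers name them, were only compared with the results. The deposited group means of normalized counts, a signal scaled by the authors per sample, were not used.

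Counts were filtered with filterByExpr, scaled with TMM (factors 0.970 to 1.03) and tested with edgeR 4.0.16 (glmQLFit and glmQLFTest) in R 4.3.3, two-sided, with Benjamini-Hochberg adjustment over 13804 features at 0.05. The common biological coefficient of variation came to 14.1%. SE were derived from the F statistic, and CPM are TMM-scaled except for marker sums. Paralog ratios and shares were compared with exact permutation tests. The alternatives were DESeq2 1.42.0, limma-voom (limma 3.58.1), RLE, upper quartile or library size scaling, no filter or at least 1 CPM in 3 samples, only protein-coding genes, a replicate block, removal of the length and GC trend, both together, and each sample left out. Restriction to genes with no overlapping feature or near-identical copy was added after the data were seen. Overlaps came from GENCODE M21 and copies from BLAST 2.17.0 at 95% identity over at least 30% of the longest transcript. By these, 32 of the 66 genes overlap another feature in exons, 5 have a copy and 30 have neither.

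The genes and gene lists were chosen with earlier results of these data known. Values in every sample are given for genes past the threshold with a log2 change of at least 0.8 and groups that do not overlap, for the gene with the smallest p in each role, and for paralog pairs. From each other list, the gene with the smallest p in each direction is named. The test was tried on simulated counts.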

Additional observations from a re-analysis of the deposited data

How the results depend on the processing

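Of the 18 genes that passed, 7 kept their call under all 17 alternatives: Cdk12, Cdk8, Hexim1, Polr2a, Polr2c, Med20 and Med21. Of the 46 that did not pass, 34 stayed so under all 17, and no gene that passed changed sign. The number that rose was 4 instead of 7 with the replicate block and the length and GC trend removed together, and 4 to 7 with each library left out in turn, the lowest without control replicate 2, control replicate 3 or repletion replicate 3. The number that fell was 11, 9 to 12 with each library left out, and 5 among the 30 genes with no overlapping feature or near-identical copy, a smaller set. With the replicate number as a block, 5 genes rose and 9 fell. The numbers share no stated batch, and the deviations of same-numbered samples correlated at -0.0757, -0.0331 and 0.0552, which gives no sign of pairing. Without scaling beyond library size 9 rose and 8 fell, with the median of all features at 0.06. Without the filter 6 rose and 13 fell, with that median at 0.13. Depth limits the smaller changes: Polr2l, at 50 to 99 counts, has an SE of 0.29, and Polr2m, at 3309 to 4986 counts, one of 0.10.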
